A study of Mus musculus with 12 samples.

Results

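The MYC, MAX and MXI1 network is a family of transcription factors that pair with each other and bind the same short DNA motif. The 9 genes measured here were chosen by name, with their response to CGRP known, and each was found as 1 row among the 52636 genes of both count tables: *Myc*, *Max*, *Mxi1*, *Mxd1*, *Mxd4*, *Mnt*, *Mlx*, *Mlxip* and *Mga*. RNA was sequenced from bone marrow cells of C57BL/6J mice aged 8 to 12 weeks, with no genetic modification named in the labels. Neutrophils were taken with a neutrophil enrichment kit and used fresh in RPMI, whereas monocytes were taken with a monocyte isolation kit and first grown for 3 days in DMEM/F12 with 10 ng/ml M-CSF, the growth factor under which monocytes become macrophages. Both were then kept for 4 h with 1 nM CGRP, a neuropeptide released by sensory neurons that raises cyclic AMP through its receptor, or with saline (PBS). There were 3 libraries in each of the 4 groups, 12 in total. The labels call the cultured cells monocyte/macrophage, and they are called macrophages here.

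MYC has to join MAX to bind DNA, and the pair switches on genes for growth, ribosome production and division. MXI1, MXD1, MXD4 and MNT also join MAX and occupy the same motif, the E-box CACGTG, but they bring in the SIN3 co-repressor with its histone deacetylases and lower transcription. MGA is a further MAX partner that belongs to a Polycomb complex, PRC1.6. MLX is a MAX-like protein, and its partner MLXIP (MondoA) responds to glucose metabolites and switches on *Txnip* and *Arrdc4*. In myeloid cells MYC is known for the growth of progenitors, and MXD1 for their terminal differentiation.

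Each library held between 2002559 and 3631989 counts. The floor, 3 counts in a library, equals 0.826 to 1.5 CPM, the unit used below for counts scaled to a common library total. With priming from the poly-A tail and unique molecular identifiers, a count stands for a molecule read near its 3′ end. The neutrophil libraries held 1234 to 3369 counts of *Ly6g*, a marker of neutrophils, against 0 to 3 in macrophage libraries. They also held transcripts of other marrow cells. The erythroid markers summed to 5640 to 7152 CPM, led by *Hbb-bs*, and 4 granulocyte progenitor markers summed to 3073 to 3818 CPM, led by *Elane* or *Mpo*. Of the mast cell, basophil and eosinophil markers, *Prg2* stood highest at 494 to 592 CPM, followed by *Mcpt8* at 354 to 460 CPM. In the macrophage libraries *Adgre1* (F4/80) stood at 382 to 608 CPM. Of the T cell markers, 3 or more of the 4 were at 0 in these libraries, apart from 1 CGRP library with 2 at 0. The B cell markers *Cd79a* and *Ms4a1* were at 0 there, whereas *Cd79b* stood at 31.6 to 40.3 CPM. None of the marker genes tested was a DEG of CGRP in limma-voom, edgeR or DESeq2. An unadjusted p under 0.05 was seen for 4 of 41 in neutrophils and 6 of 23 in macrophages. Among all genes these shares were 12.8% and 19.8%. In macrophages all 8 macrophage markers (median log2 fold change 0.26) and all 6 neutrophil markers tested (0.35) lay above 0 with CGRP. Of the other markers tested there, 1 of 3 erythroid and 1 of 2 mast cell, basophil and eosinophil markers lay below 0. In bulk RNA, fewer cells of a type and less RNA per cell cannot be told apart, and the part of other marrow cells in the neutrophil values below was not tested.

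In the RefSeq promoter table (GRCm38.p6, 250 bases before to 50 after each start site), 8 of the 9 genes were found, with 10 start sites, and *Myc* was not among them. The E-box CACGTG, which reads the same on both strands, lay in the promoters of 4 of these genes, whereas 8.09% of the 27025 genes of the table hold it. These sites are shown because the network's own proteins bind this motif. Each is given 5′ to 3′ on the strand of its gene, with the E-box in capitals. The E-box begins 3 bases before the start of *Max*, 219 before that of *Mxd4*, 123 before that of *Mnt* and 40 before that of *Mlx*.
Max, chr12:76962229-76962278, - strand: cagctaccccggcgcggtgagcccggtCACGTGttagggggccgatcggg
Mxd4, chr5:34187897-34187956, - strand: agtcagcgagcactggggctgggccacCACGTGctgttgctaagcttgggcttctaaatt
Mnt, chr11:74830774-74830833, + strand: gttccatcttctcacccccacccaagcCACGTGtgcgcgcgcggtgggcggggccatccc
Mlx, chr11:101087223-101087282, + strand: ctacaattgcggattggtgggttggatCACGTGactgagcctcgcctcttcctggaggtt

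The cyclic AMP response element TGACGTCA was in none of the 8 genes' promoters, against 2.03% of all genes, and its shorter form TGACG, searched on both strands, was in those of *Mlx*, *Mlxip* and *Mga*, against 23.0% of all genes. The TGACG letters are part of the longer element. *Mxi1* has 3 start sites in the table, and none of their promoters holds any of these letters. The 250 bases before the first and the second are shown because *Mxi1* changed most among the 9 genes. Counts taken near the 3′ end do not tell which start was used. The absence of a motif says only that these letters are not in these windows.
Mxi1, chr19:53310256-53310505, + strand: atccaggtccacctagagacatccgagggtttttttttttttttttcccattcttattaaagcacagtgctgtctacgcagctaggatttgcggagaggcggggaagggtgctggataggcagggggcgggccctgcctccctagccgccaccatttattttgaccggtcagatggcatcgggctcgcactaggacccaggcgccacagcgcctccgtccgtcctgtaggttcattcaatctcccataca
Mxi1, chr19:53329163-53329412, + strand: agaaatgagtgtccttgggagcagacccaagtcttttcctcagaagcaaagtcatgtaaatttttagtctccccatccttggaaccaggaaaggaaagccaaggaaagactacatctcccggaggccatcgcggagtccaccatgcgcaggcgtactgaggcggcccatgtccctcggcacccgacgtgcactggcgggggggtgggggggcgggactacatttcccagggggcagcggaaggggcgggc

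In macrophages *Myc* fell and *Mxi1* rose after 4 h of CGRP, whereas none of the 9 genes was a DEG in neutrophils. *Myc* (ENSMUSG00000022346, GRCm38 chr15:61985391-61990374, + strand, 3 exons in its longest transcript) had 25.5, 19.0 and 16.7 CPM in the 3 saline macrophage libraries, scaled by the trimmed mean of M values (TMM). It had 4.79, 5.97 and 5.56 CPM in the 3 CGRP libraries. Every CGRP library lay below every saline library, and the counts behind these values were 88, 63 and 46 against 15, 16 and 11. Saline libraries averaged 20.4 ± 4.55 and CGRP libraries 5.44 ± 0.599 CPM (SD, n = 3), and the log2 fold change was −1.88 (SE 0.31, 95% interval −2.53 to −1.22). By this change *Myc* ranked 43 from the bottom of the 9393 genes tested in macrophages. In neutrophils *Myc* was low in both groups, with 3.38, 5.66 and 6.37 CPM with saline and 4.12, 5.25 and 1.31 CPM with CGRP. These groups overlapped, the lowest CGRP library held 3 counts, and the log2 fold change was −0.53 (SE 0.43, 95% interval −1.44 to 0.37). The estimate of −1.88 in macrophages lies outside this interval, but the intervals of the cell types overlap. A smaller change could not be resolved at this depth.

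*Max* (ENSMUSG00000059436, chr12:76937269-76962201, − strand), the partner that MYC and its antagonists share, was not a DEG in either cell type. In macrophages it had 20.0, 18.4 and 24.0 CPM with saline and 13.4, 23.5 and 27.8 CPM with CGRP. The CGRP libraries spread on both sides of the saline libraries, with a log2 fold change of −0.04 (SE 0.26) whose sign changed with the test used. In neutrophils the saline libraries had 117, 83.2 and 147 CPM and the CGRP libraries 74.1, 122 and 100.3 CPM, again overlapping, with a log2 fold change of −0.21 (SE 0.17). *Gm47218*, which overlaps *Max* on the same strand, had at most 14 counts in a library.

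*Mxi1* (ENSMUSG00000025025, chr19:53310518-53375810, + strand, 6 exons in its longest transcript) encodes a repressor that takes MAX from MYC. The saline macrophage libraries had 8.69, 7.53 and 10.9 CPM, and the CGRP libraries 55.2, 54.4 and 55.1 CPM. No CGRP library was near a saline library, and the 3 CGRP values lay within 1 CPM of each other, from counts of 173, 146 and 109 against 30, 25 and 30. The log2 fold change was 2.61 (SE 0.22, 95% interval 2.15 to 3.08), a 6.12-fold rise that ranked 22 from the top of the 9393 genes. In neutrophils *Mxi1* was at 55.6, 43.8 and 54.9 CPM with saline and 62.1, 52.8 and 62.4 CPM with CGRP. These groups overlapped, with a log2 fold change of 0.20 (SE 0.13). *Gm10197*, on the opposite strand of *Mxi1*, had at most 1 count in a library, and AC133451.2, also opposite, is not in the tables.

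**Figure D1:**
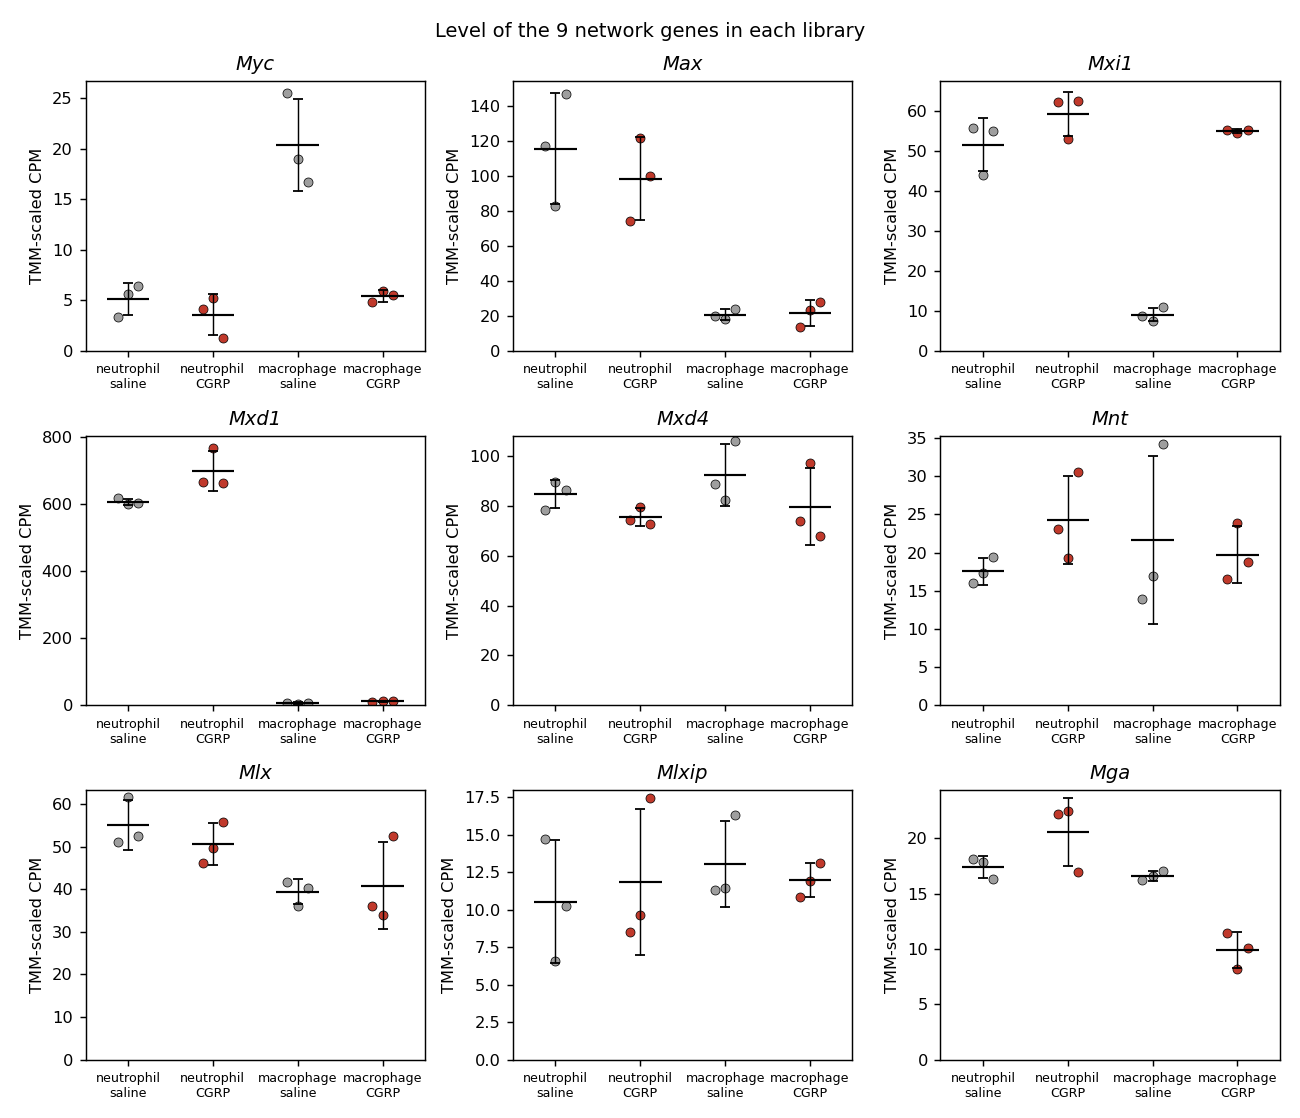
TMM-scaled CPM (linear axis from 0) of the 9 genes in each of the 12 libraries, grouped by cell type and treatment, each cell type scaled on its own libraries; points are libraries and lines are means of 3. In macrophages the CGRP libraries lie below the saline libraries for *Myc* (4.79 to 5.97 against 16.7 to 25.5 CPM) and above them for *Mxi1* (54.4 to 55.2 against 7.53 to 10.9 CPM).

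Levels of both genes in the 4 groups were also set on one scale over the 12 libraries. *Mxi1* was lowest in saline macrophages (8.93 ± 1.67 CPM), followed by saline neutrophils (52.4 ± 6.44), CGRP macrophages (54.2 ± 0.465) and CGRP neutrophils (59.6 ± 5.85). The last 3 groups overlap in range. *Myc* had the reverse order at one end, with saline macrophages highest (20.2 ± 4.49 CPM) and the others at 5.36 ± 0.618 (CGRP macrophages), 5.23 ± 1.59 (saline neutrophils) and 3.59 ± 2.04 (CGRP neutrophils), which also overlap (SD, n = 3 in each).

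The ratio of *Mxi1* counts to *Myc* counts needs no scaling between libraries. It was 0.341, 0.397 and 0.652 in saline macrophages and 11.5, 9.13 and 9.91 in CGRP macrophages. It was 16.5, 7.74 and 8.61 in saline neutrophils and 15.1, 10.1 and 47.7 in CGRP neutrophils, the last from a library with 3 *Myc* counts. The CGRP macrophages thus lay within the range of the saline neutrophils. The ratio restates both changes above and is comparable only between libraries.

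**Figure D2:**
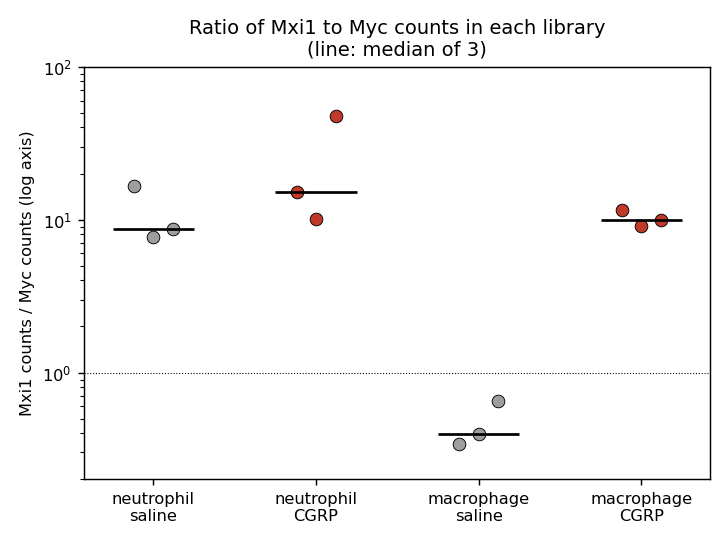
Ratio of *Mxi1* to *Myc* counts (log axis) in each library of the 4 groups, with a line at the median of 3 and a dotted line at a ratio of 1. Only the saline macrophage libraries, at 0.341 to 0.652, lie below 1.

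The other repressors did not move as *Mxi1* did. *Mxd1* (ENSMUSG00000001156, chr6:86647042-86669161, − strand) had 7.53, 4.82 and 8.00 CPM in saline macrophages and 10.9, 11.9 and 11.6 CPM in CGRP macrophages. The groups did not overlap, but *Mxd1* was not a DEG (log2 fold change 0.79, SE 0.29, 95% interval 0.17 to 1.41). In neutrophils, where it was abundant, *Mxd1* had 618, 600.1 and 605 CPM with saline and 668, 767 and 664 CPM with CGRP. All CGRP libraries lay above all saline libraries, by a log2 fold change of 0.20 (SE 0.08), and *Mxd1* was again not a DEG. *Gm44292* overlaps *Mxd1* on the same strand and had up to 278 counts in a neutrophil library, and 5 in a macrophage library.

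*Mxd4* (ENSMUSG00000037235, chr5:34173883-34187720, − strand), a repressor of the same kind, had 88.6, 82.3 and 106 CPM in saline macrophages and 74.1, 97.3 and 67.7 CPM in CGRP macrophages, which overlap (log2 fold change −0.21, SE 0.16). *Mnt* (ENSMUSG00000000282, chr11:74830920-74845725, + strand), the broadly expressed antagonist of MYC, ranged from 13.9 to 34.2 CPM in saline and from 16.6 to 23.9 CPM in CGRP macrophages (log2 fold change −0.00, SE 0.29). Neither moved beyond the spread between libraries in macrophages. In neutrophils *Mxd4* changed by −0.16 (SE 0.11) and *Mnt* by 0.41 (SE 0.19) on the log2 scale. The *Mnt* values there were 16.0, 17.3 and 19.5 CPM with saline against 23.1, 19.3 and 30.5 CPM with CGRP, so that the lowest CGRP library lay just under the highest saline library.

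*Mga* (ENSMUSG00000033943, chr2:119897228-119969581, + strand), which pairs with MAX through a domain like that of MYC and also carries a T-box, had 16.2, 16.6 and 17.1 CPM in saline macrophages and 11.5, 8.20 and 10.1 CPM in CGRP macrophages. The groups did not overlap, and the log2 fold change was −0.73 (SE 0.25, 95% interval −1.26 to −0.21), but *Mga* was not a DEG. In neutrophils it had 18.1, 17.9 and 16.3 CPM with saline and 22.2, 22.5 and 17.0 CPM with CGRP, which overlap (log2 fold change 0.24, SE 0.18).

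The MLX branch showed no change beyond the spread between libraries. In macrophages *Mlx* (ENSMUSG00000017801, chr11:101087277-101092207, + strand) had 41.7, 36.2 and 40.4 CPM with saline and 36.1, 33.9 and 52.6 CPM with CGRP, with a log2 fold change of −0.00 (SE 0.19). *Mlxip* (ENSMUSG00000038342, chr5:123394798-123457932, + strand) had 11.3, 11.5 and 16.4 CPM with saline and 10.9, 11.9 and 13.1 CPM with CGRP (log2 fold change −0.10, SE 0.26). In neutrophils the log2 fold changes were −0.14 (SE 0.13) for *Mlx* and 0.12 (SE 0.30) for *Mlxip*, both with overlapping groups. *Psmc3ip*, on the opposite strand of *Mlx*, had up to 58 counts in a library and *Gm43813*, on the same strand as *Mlxip*, up to 25, and the strand setting of the counting is not stated. For all 9 genes, none of the 31-base sequences of the last 500 bases occurs in another annotated gene.

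Thus 2 of the 9 genes were DEGs in macrophages, 1 higher and 1 lower, where 7.43% of all 9393 genes tested were DEGs, and 4 of the 9 did not overlap between groups, where 24.2% of all genes did not. In neutrophils 1 of the 9, *Mxd1*, did not overlap, against 17.7% of all genes. By the test, 0 of the 9 were DEGs there in limma-voom, edgeR or DESeq2 against 2.53% of 9819 genes, and 2 had an unadjusted p under 0.05 against 12.8%. The 9 genes were chosen with these responses known, so that nothing is read from the counts. All 9 passed the filter on low counts in both cell types. *Myc* and *Mxi1* were DEGs of macrophages under each of the 8 alternatives of processing and with each library left out.

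**Figure D3:**
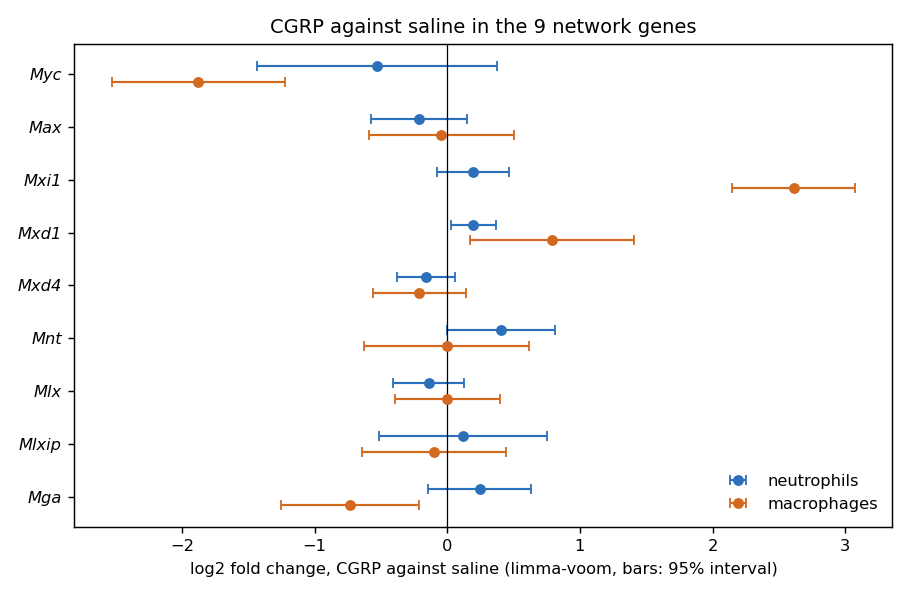
Log2 fold change of CGRP against saline for the 9 genes in neutrophils and macrophages, with 95% intervals from limma-voom on 3 against 3 libraries. In macrophages *Mxi1* lies at 2.61 and *Myc* at −1.88, and the intervals of 5 of the other 7 genes in macrophages include 0.

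The size of the CGRP effect was compared between the cell types as macrophages minus neutrophils, in a fit over the 12 libraries. For *Mxi1* the effects differed by 2.43 on the log2 scale (SE 0.25, 95% interval 1.90 to 2.95), and it was the only one of the 9 genes called, where 2.36% of 10694 genes were. For *Myc* the difference was −1.33 (SE 0.55, 95% interval −2.48 to −0.19) and it was not called, so that a fall particular to macrophages is not shown for *Myc*. The difference for *Mga* was −0.96 (SE 0.30), also not called, and the other 6 lay between −0.40 and 0.60. These values are a description too, since both effects were known when the genes were chosen.

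The saline libraries of the cell types were compared as well. The levels of the 9 genes were known when they were chosen, so that their values are a description here too, given without p. In saline neutrophils *Mxd1* was higher than in saline macrophages by 6.55 on the log2 scale (SE 0.22), at 619 ± 8.45 against 6.70 ± 1.68 CPM (SD, n = 3). *Mxi1* was higher by 2.56 (SE 0.21) and *Max* by 2.49 (SE 0.25), at 118 ± 31.8 against 20.5 ± 2.80 CPM. *Mlx* was higher by 0.53 (SE 0.15). *Myc* was lower in neutrophils, with a log2 difference of −1.96 (SE 0.32), at 5.23 ± 1.59 against 20.2 ± 4.49 CPM. These 5 were called by limma-voom. For each of them the 3 libraries of one cell type lay apart from the 3 of the other, as they did for 70.4% of all genes.

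*Mxd4*, *Mnt*, *Mlxip* and *Mga* were not called in this contrast, with log2 differences of −0.06 (95% interval −0.34 to 0.21), −0.11 (−0.65 to 0.44), −0.30 (−0.89 to 0.30) and 0.12 (−0.28 to 0.52). The 5 of 9 called compare with 67.9% of all 10694 genes, and the 4 that were higher in neutrophils with 35.4%. The 5 calls were made with every alternative and with each of the 12 libraries left out. Cell type, freshness, growth with M-CSF and medium differ together between these groups and cannot be told apart. The labels do not say whether libraries of a group came from separate mice or cultures, so that p-values measure the spread between these libraries, which may be technical.

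The other genes of the family were near or under the floor, except *Mxd3*. *Mxd3*, a repressor of dividing cells, had 93, 125 and 95 counts in saline and 100, 105 and 71 in CGRP neutrophils, against 5, 5 and 11 in saline and 8, 5 and 0 in CGRP macrophages. It was higher in saline neutrophils than in saline macrophages by 3.99 on the log2 scale (SE 0.43, limma-voom adjusted p = 2.77e-08), and it overlaps *Prelid1* on the opposite strand, which had up to 462 counts in a neutrophil library and up to 469 in a macrophage library. *Mycn* and *Mycl*, the relatives of *Myc*, and *Mlxipl* (ChREBP), the relative of *Mlxip*, had at most 5 counts in any library and could not be tested. *Pvt1*, the non-coding RNA gene next to *Myc*, had 11, 14 and 9 counts in saline macrophages and 8, 2 and 2 in CGRP macrophages. Its CGRP libraries all lay below its saline libraries in counts, but it did not pass the filter on low counts in macrophages and was not tested there.

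Several genes that MYC is known to switch on for ribosome production fell with CGRP in macrophages. Of 29 such genes, all tested, 7 fell and 0 rose, where 3.97% of all genes fell, and 27 had a log2 fold change under 0. The median of the 29 was −0.44, against 0.005 over all genes. This list and the lists below were chosen with earlier results of these data known, so that their counts are a description. *Gnl3* (nucleostemin, a nucleolar GTPase) had 47.8, 52.1 and 37.1 CPM with saline and 14.4, 16.8 and 18.2 CPM with CGRP. All its CGRP libraries were lower, by −1.48 on the log2 scale (SE 0.21, limma-voom adjusted p = 2.90e-04). *Nop58*, a core protein of the particles that methylate ribosomal RNA, had 50.4, 52.1 and 38.9 CPM with saline and 15.3, 23.5 and 19.2 CPM with CGRP (log2 fold change −1.31, SE 0.21, limma-voom adjusted p = 9.48e-04). The groups did not overlap for *Ppan* (−1.27, SE 0.30) and *Dkc1* (−1.09, SE 0.25) either, and *Nop56*, *Wdr43* and *Ddx21* fell by smaller amounts. The calls of *Ppan* and *Nop56* were lost with thinned counts. The count of 7 dropped to 3 without saline replicate 1, to 2 without CGRP replicate 2 and to 4 without CGRP replicate 3, and *Gnl3* and *Nop58* were called without any one library. In neutrophils 0 of 28 of these genes were called by limma-voom, edgeR or DESeq2, with 1 at an unadjusted p under 0.05, and the median was −0.01 against 0.001. The difference between the cell types was itself called for *Nop58* (−1.43, SE 0.28, limma-voom adjusted p = 4.61e-03), the 1 gene of the list called by limma-voom. This count was 2 with edgeR, with DESeq2 and without macrophage saline replicate 3, macrophage CGRP replicate 1 or neutrophil CGRP replicate 1, and 3 with library totals alone or the replicate block.

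Of 26 genes for growth and metabolism that MYC is known to switch on, 24 were tested in macrophages, and *Hspd1*, a mitochondrial chaperonin, fell (log2 fold change −0.53, SE 0.15, limma-voom adjusted p = 0.0496), a call lost without the filter on low counts, without saline replicate 1 and without CGRP replicate 2 or 3. The median of this list was −0.21, and it lay between −0.25 and −0.093 with 1 library left out. Of the 24, 10 had an unadjusted p under 0.05, against 19.8% of all genes in macrophages. The count of lower genes was 2 with DESeq2, library totals alone, no filter, the replicate block or without saline replicate 3. A single fit over the 12 libraries gave 2 lower and 1 higher. In neutrophils *Ldha*, which makes lactate from pyruvate, was the only one of 26 called, and 2 were called without saline replicate 3. There 5 had an unadjusted p under 0.05, against 12.8% of all genes. Among all genes 7.43% were DEGs in macrophages and 2.53% in neutrophils, so that nothing about this list is read from its 1 DEG in each. *Ldha* had 703, 743 and 692 CPM with saline and 1077, 945 and 1042 CPM with CGRP in neutrophils. All its CGRP libraries lay above its saline libraries, with a log2 fold change of 0.51 (SE 0.08, limma-voom adjusted p = 3.70e-04).

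Of 7 genes that MYC is known to hold down, 6 were tested in macrophages, of which 2 rose and 1 fell, where 3.46% of all genes rose and 3.97% fell. *Cdkn1a* (p21), an inhibitor of cyclin-dependent kinases, had 163, 153 and 189 CPM with saline and 296, 337 and 337 CPM with CGRP (log2 fold change 0.95, SE 0.13, limma-voom adjusted p = 2.21e-04). *Cdkn1b* (p27), an inhibitor of the same kind, had 13.6, 17.2 and 22.5 CPM with saline and 37.7, 41.0 and 35.4 CPM with CGRP (log2 fold change 1.14, SE 0.21, limma-voom adjusted p = 2.48e-03). Both were higher in every CGRP library. *Ndrg1*, a gene of stress and differentiation in the same list, went the other way (−1.23, SE 0.30, limma-voom adjusted p = 0.018), a call lost without CGRP replicate 1 or 3, and the median of the list was −0.26. With 1 library left out this median lay between −0.30 and −0.14. In neutrophils 0 of 6 were called by limma-voom, edgeR or DESeq2. There 3 had an unadjusted p under 0.05, against 12.8% of all genes. In limma-voom 1 was called higher there with library totals alone, with the replicate block and without neutrophil CGRP replicate 3. The difference between the cell types was called for none of the 6 by limma-voom or edgeR. It was called for 1 by DESeq2 and by limma-voom without macrophage saline replicate 3 or macrophage CGRP replicate 1.

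**Figure D4:**
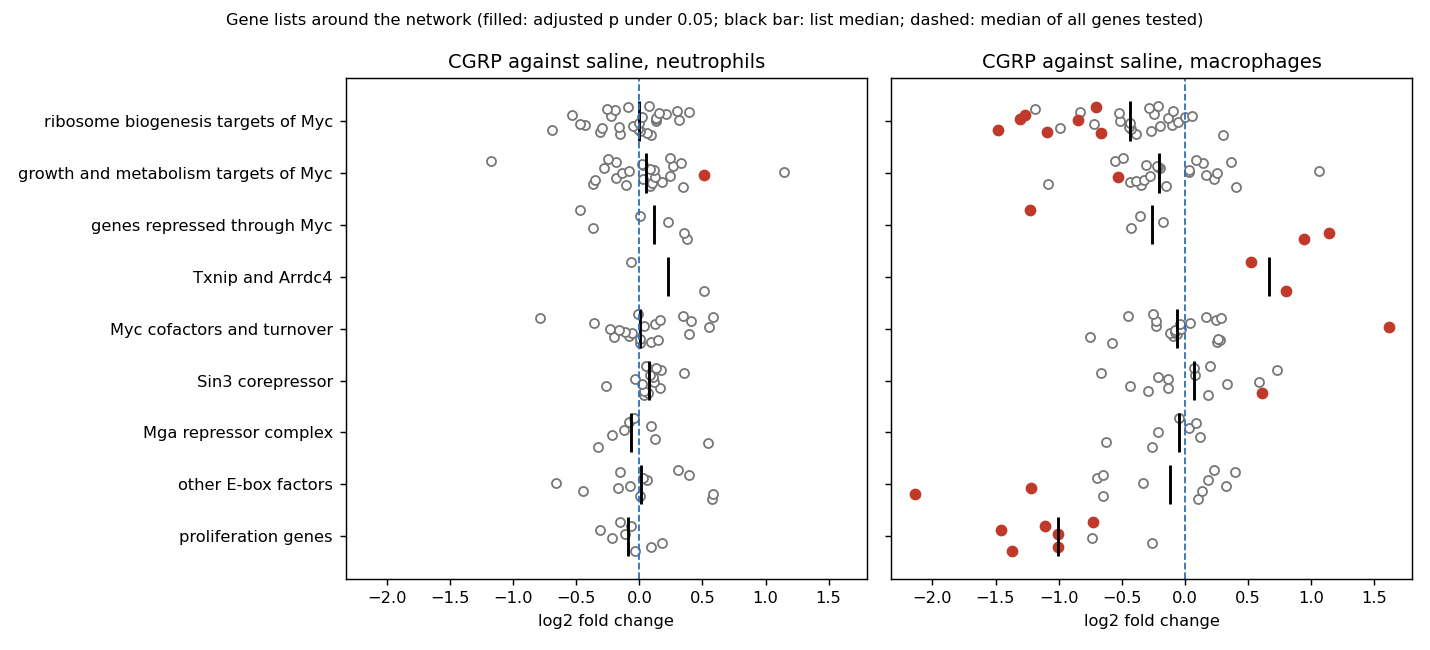
Log2 fold change of CGRP against saline for each tested gene of the lists around the network, in neutrophils and macrophages; filled points have an adjusted p under 0.05, black bars are list medians and dashed lines the median of all genes tested. In macrophages the medians lie at −0.44 for ribosome production and at −1.0 for proliferation.

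The targets of MondoA and MLX were higher with CGRP in macrophages although *Mlxip* and *Mlx* were not DEGs. *Arrdc4* and *Txnip* are related arrestin-domain genes whose products curb glucose uptake. *Arrdc4* had 26.4, 23.2 and 20.7 CPM with saline and 43.7, 42.9 and 35.4 CPM with CGRP (log2 fold change 0.80, SE 0.19, limma-voom adjusted p = 0.014). *Txnip* had 54.2, 65.4 and 68.0 CPM with saline and 88.7, 92.9 and 87.0 CPM with CGRP (log2 fold change 0.53, SE 0.15, limma-voom adjusted p = 0.038). Every CGRP library of both lay above every saline library, and 3.46% of all genes rose. Both genes were listed with earlier results of these data known, so that their calls are no independent support. The call of *Txnip* was lost with library totals in place of TMM (0.48, limma-voom adjusted p = 0.082), without the filter, with thinned counts, and without saline replicate 1 or any one CGRP library, and that of *Arrdc4* without CGRP replicate 2. In neutrophils neither was called by limma-voom, edgeR or DESeq2. *Arrdc4* had 25.8, 17.6 and 24.8 CPM with saline and 30.4, 32.4 and 33.6 CPM with CGRP there, so that all its CGRP libraries again lay above its saline libraries (log2 fold change 0.52, SE 0.17), and it had the 1 unadjusted p under 0.05. *Txnip* overlapped between groups (log2 fold change −0.06, SE 0.09). The difference between the cell types was called for neither by limma-voom or edgeR, and for 1 by DESeq2 and by limma-voom without macrophage saline replicate 3. It was 0.30 (SE 0.25) for *Arrdc4* and 0.61 (SE 0.16, limma-voom adjusted p = 0.051) for *Txnip*.

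The proteins that work with the network were taken as 4 lists, to be read beside the 7.43% of all genes that were DEGs in macrophages. Of 21 cofactors and modifiers of MYC, *Pim1*, a kinase that stabilizes MYC, rose in macrophages from 39.7, 33.2 and 65.8 CPM to 111, 128 and 174 CPM (log2 fold change 1.62, SE 0.22, limma-voom adjusted p = 1.54e-04), and no other was called. Of 14 subunits of the SIN3 co-repressor, *Arid4b* rose (0.61, SE 0.17, limma-voom adjusted p = 0.035), a call lost with library totals in place of TMM, with thinned counts and without any one library except CGRP replicate 3. The count of higher genes in this list was 1 without CGRP replicate 1, and 2 with the replicate block or a single fit over the 12 libraries. Of the 14, 4 had an unadjusted p under 0.05, against 19.8% of all genes. None of the 7 tested subunits of PRC1.6 was called in macrophages by limma-voom, edgeR or DESeq2, and none had an unadjusted p under 0.05. Of 12 other tested factors that bind E-boxes, *Bhlhe41*, a repressor of the circadian clock, fell (−2.14, SE 0.46, limma-voom adjusted p = 8.34e-03), from 9.27, 11.5 and 22.5 to 2.55, 3.36 and 2.53 CPM, a call lost without CGRP replicate 2. *Mitf*, a factor of lysosomal and melanocyte genes, also fell (−1.22, SE 0.21, limma-voom adjusted p = 1.53e-03), from 81.1, 84.7 and 101 to 26.8, 39.2 and 57.1 CPM. In neutrophils 0 genes of these 4 lists were called by limma-voom, edgeR or DESeq2, with 2 cofactors, 0 subunits of SIN3, 1 of PRC1.6 and 0 other factors at an unadjusted p under 0.05. Among the cofactors 1 was called higher there without the filter, with the replicate block, and without saline replicate 3 or CGRP replicate 1.

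Genes of dividing cells fell in the same macrophage libraries as *Myc*. Of 8 such genes 6 fell, and all 8 had a log2 fold change under 0, with a median of −1.0, where 3.97% of all genes tested fell. This list too was chosen with earlier results known, so that these counts are a description. Their summed level was 410, 419 and 301 CPM in the saline libraries and 244, 185 and 148 CPM in the CGRP libraries, led by *Pcna*. *Mki67*, a marker of cycling cells, had 15.6, 10.3 and 9.81 CPM with saline and 5.75, 5.97 and 1.52 CPM with CGRP (log2 fold change −1.46, SE 0.42, limma-voom adjusted p = 0.046). *Ccna2* (cyclin A2) changed by −1.37 (SE 0.27, limma-voom adjusted p = 3.91e-03) and *Pcna*, the clamp of DNA polymerase, by −1.11 (SE 0.20, limma-voom adjusted p = 1.78e-03). *Ccnb1* (cyclin B1) changed by −1.01 (SE 0.29, limma-voom adjusted p = 0.043). The count of 6 dropped to 2 without saline replicate 1, CGRP replicate 2 or CGRP replicate 3, to 4 without saline replicate 2 and to 3 with counts thinned to the smallest library, and *Ccna2* and *Pcna* were called without any one library. The part of fewer cycling cells in the values of *Myc* and of the ribosome genes was not tested. In neutrophils 0 of the 8 were called by limma-voom, edgeR or DESeq2, with 1 at an unadjusted p under 0.05, where 2.53% of all genes were DEGs. The difference between the cell types was called for *Ccna2* (−1.33, SE 0.27, limma-voom adjusted p = 5.99e-03) and *Pcna* (−1.02, SE 0.25, limma-voom adjusted p = 0.025). The call of *Ccna2* was made under each alternative and without any one library, whereas that of *Pcna* was lost without the filter and with 8 of the 12 libraries left out in turn (neutrophil saline replicates 1 and 3, neutrophil CGRP replicates 1 and 2, macrophage saline replicates 1 and 2 and macrophage CGRP replicates 2 and 3). The count of 2 was 3 with edgeR, DESeq2 or library totals, 4 with the replicate block or without macrophage CGRP replicate 1, 5 without macrophage saline replicate 3, and 1 without the filter or without any 1 of these 8 libraries other than neutrophil CGRP replicate 2, where it stayed at 2.

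The ribosome production genes and the genes of dividing cells were also compared between the saline libraries. Of the 29 ribosome production genes 18 were lower in neutrophils than in macrophages and 0 were higher, where 32.5% of all genes were lower, and the median was −0.73 against 0.03. *Rrs1*, a factor of the large ribosomal subunit, differed by −2.15 (SE 0.30, limma-voom adjusted p = 1.15e-06) and *Gnl3* by −1.85 (SE 0.19, limma-voom adjusted p = 1.50e-08). Genes of dividing cells went the other way, with 7 of 8 higher in neutrophils, where 35.4% of all genes were higher, and *Pcna* lower (−1.11, SE 0.17, limma-voom adjusted p = 3.48e-06). *Mki67* was at 105 ± 11.6 CPM in saline neutrophils and at 11.8 ± 3.2 CPM in saline macrophages (SD, n = 3). All the neutrophil libraries also held the markers of other marrow cells given above, and the part of those cells in these values was not tested.

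The genes most like *Mxi1* were found by the correlation of log2 CPM over the 12 libraries, after each cell type was centred on its own mean, among 10694 genes. They were *Pde4b*, a phosphodiesterase of cyclic AMP (r = 0.99), *Ifngr1*, a chain of the interferon-γ receptor (r = 0.98), and *Btg2*, an antiproliferative gene (r = 0.98). In macrophages *Pde4b* went from a mean of 12.3 to 136 CPM, *Btg2* from 84.3 to 212 CPM and *Ifngr1* from 329 to 633 CPM. *Pde4b* also rose in neutrophils (log2 fold change 0.60). The genes most like *Myc* were *Exosc1*, a subunit of the RNA exosome (r = 0.94), *Pik3ap1* (r = 0.92) and *B4galt4* (r = 0.92), of which *Exosc1* and *Pik3ap1* were DEGs that fell in macrophages. Those most like *Max* were *Mcu*, *Hnrnpul2* and *Keap1* (r = 0.89, 0.88 and 0.87), none of them a DEG. The 12 libraries fall into 4 groups, and after centring *Mxi1* varied mainly by its change with CGRP in macrophages. Its r values therefore largely restate that change, and all these values are a description.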

How the data were processed

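RNA of 12 libraries (3 in each of 4 groups) was analysed. The deposited tables, 1 for each cell type, hold raw counts per gene. To make them, the authors ran the nfCore/RNAseq pipeline with UMIs, with STAR as aligner, GRCm38 as reference and featureCounts as counter. The annotation release and the strand setting are not given in the sources used here.

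The members and the gene lists were chosen with earlier results of these data known. Columns were matched to samples by name, and no library was a copy of another. Genes were kept by filterByExpr, libraries scaled by TMM, and CGRP compared with saline by limma-voom within each cell type on 6 libraries (two-sided, Benjamini–Hochberg over all genes tested, threshold 0.05). DEGs are genes under this threshold. The difference of the effects and the comparison of saline libraries came from 1 fit over the 12 libraries. Values of single libraries are CPM scaled by TMM within a cell type. Floors cover counting error only. No p of a single member is given.

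Named genes are the 9 members, other genes of the family, *Pvt1*, from each list at most 4 DEGs with the largest change in each cell type, the 3 genes most correlated with *Myc*, *Max* and *Mxi1* (prior count 2), and overlapping genes. *Nop56*, *Wdr43*, *Ddx21*, *Rrs1* and the marker genes were named in addition, after their values were seen. Of the identifiers, 52489 of 52636 were found in GENCODE for GRCm38. The alternatives tried were DESeq2, the quasi-likelihood test of edgeR, size factors from DESeq2, library totals alone, no filter, a replicate block, thinned counts, 1 fit over the 12 libraries, and leaving out each library. The fits were tested on simulated data. Versions were DESeq2 1.42.0, edgeR 4.0.16 and limma 3.58.1 in R 4.3.3, and matplotlib 3.10.9 and pandas 2.3.3 in Python 3.11.15.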

Additional observations from a re-analysis of the deposited data

Results flagged for a closer look

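The CGRP effect on *Mxi1* differed between the cell types by 2.43 on the log2 scale, macrophages minus neutrophils (SE 0.25, limma-voom interaction term over 12 libraries), and was called at the threshold of 0.05. *Mxi1* went from 9.04 ± 1.71 to 54.9 ± 0.418 CPM in macrophages and from 51.4 ± 6.61 to 59.1 ± 5.44 CPM in neutrophils (SD, n = 3). *Mxi1* was chosen with both effects known, so that the call is a description and no independent support, and the saline levels of the cell types differed before CGRP.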

How the results depend on the processing

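With 3 libraries a group and counts as low as 3 for *Myc* in a neutrophil library, changes of the less abundant members in neutrophils were estimated with wide intervals. The calls of *Myc* and *Mxi1* in macrophages, of *Mxi1* in the difference of effects and of 5 members between saline libraries were made under each alternative, and no alternative turned the direction of a called member. *Mga* in macrophages was called in 1 of the 8 alternatives. The number of DEGs was 248 in neutrophils and 698 in macrophages, and 137 and 1050 in a single fit over the 12 libraries. Leaving out 1 library gave 138 to 234 DEGs in neutrophils, 347 to 765 in macrophages and 149 to 328 genes for the difference of effects, against 252. The lowest values came without saline replicate 1 or 2 in neutrophils (138 in both cases, and 153 without CGRP replicate 2) and without saline replicate 1 in macrophages (347 DEGs, and 149 for the difference of effects). In macrophages 348 DEGs were left without CGRP replicate 2 and 439 without CGRP replicate 3. Library totals in place of TMM gave 150 higher and 64 lower DEGs in neutrophils against 148 and 100, and 88 higher and 154 lower genes for the difference of effects against 129 and 123, with the median of all genes shifted by −0.12 in the latter.

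Among the members and the other genes of the family, reversals were seen in genes that were not called, and the cause was not tested. In macrophages *Max* was at 0.031 with edgeR, 0.036 with DESeq2 and 0.118 with thinned counts, and *Mlx* at 0.036, 0.038 and 0.125. With thinned counts *Mlxip* was at −0.116 and *Mxd3* at 0.015 in neutrophils, *Mlxip* at 0.148 in the difference of effects and *Mnt* at 0.228 between saline libraries. Leaving out 1 library gave ranges across 0 in macrophages for *Max* (−0.23 to 0.30), *Mlx* (−0.17 to 0.11), *Mlxip* (−0.19 to 0.061) and *Mnt* (−0.27 to 0.35), and in neutrophils for *Mlxip* (−0.21 to 0.42). It did so in the difference of effects for *Max* (−0.030 to 0.54), *Mlx* (−0.023 to 0.25), *Mlxip* (−0.51 to 0.10), *Mxd3* (−1.35 to 0.23) and *Mxd4* (−0.19 to 0.063), and between saline libraries for *Mlxip* (−0.59 to 0.021), *Mnt* (−0.38 to 0.23) and *Mxd4* (−0.14 to 0.029).

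Replicate numbers were not shown to pair libraries: the deviations of libraries with the same number correlated at 0.04, −0.01 and 0.14 in neutrophils and at 0.06, −0.18 and 0.27 in macrophages, and in each cell type 1 of 3 pairs was best matched both ways. With the replicate number as a block there were 289 DEGs in neutrophils, 1007 in macrophages, 337 genes for the difference of effects and 7434 between saline libraries, and in macrophages *Max* was at 0.015 and *Mlx* at 0.020.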
